A study of Ginkgo biloba with 9 samples.

Results

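A group of 9 gene models, of 43834 in all, kept nearly the same mean RNA level in green and turning leaves of Ginkgo biloba and was then much lower in yellow leaves. Ginkgo is a tree outside the flowering plants that sheds its yellowed leaves each autumn, and the series followed leaf senescence and coloration over 1 season. Leaf RNA was sequenced at a mature stage on September 12, when leaves were green, at a turning stage on October 26, and at a senescence stage on November 8, when they were yellow, with 3 libraries per stage, numbered 1 to 3. Per the labels, the leaves came from 3 adult trees grown outdoors under natural conditions, with no treatment named. The labels do not say which tree gave which library, so tests measure the spread between these libraries. Each stage was sampled on a single date, so stage and calendar date cannot be told apart. Green and turning leaves were 44 days apart, and turning and yellow leaves 13 days.

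The 9 members were chosen on their measured values in all 9 libraries, so the shape of their time course is a description and not a finding. Levels are given as normalized counts, that is read counts divided by a median-of-ratios size factor per library. The ratio of the turning mean to the green mean had to lie between 0.75 and 1.33. The lowest of the 6 green and turning libraries had to reach 135 normalized counts and at least 4 times the highest yellow library. At least 1 yellow library had to hold 27 normalized counts, which leaves out models that were nearly silent in yellow leaves. Models among the 100 most abundant of green or of yellow leaves were set aside, which removed none. All 9 members passed the filter on low counts. Their identifiers are Gb_39625, Gb_01682, Gb_15987, Gb_00034, Gb_02767, Gb_39136, Gb_13575, Gb_15976 and Novel01117. The deposited table does not pair identifiers with gene names or functions, so no role is given to any member, and leaf cell markers were not checked.

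Autumn senescence is an ordered dismantling of the leaf: chlorophyll is broken down, carotenoids become visible, and nitrogen and other nutrients are moved from the leaf into the stem before the leaf is shed. Cells stay alive and go on transcribing genes through most of this programme. The level of a transcript is set by its synthesis and its decay, and RNA sequencing measures the outcome of both. In bulk leaf RNA, fewer cells of a type and less of a transcript per cell cannot be told apart.

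Library totals were 23766331 to 32264081 counts in green, 25078682 to 32319325 in turning and 24066509 to 25466370 in yellow leaves. Size factors were 1.10 to 1.49 in green, 0.999 to 1.30 in turning and 0.651 to 0.742 in yellow leaves, so that 1 count equals 1.35 to 1.54 normalized counts in a yellow library. Members had 175 to 2475 raw counts in each green or turning library and 1 to 101 in each yellow library. Counting error therefore weighs most on the yellow values. Normalized counts are not scaled by transcript length, so levels are compared between libraries for 1 model and not between models.

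Gb_15976 had the highest ratio of its lowest green or turning to its highest yellow library among the members, at 10.8. It had 929, 630.3 and 684 normalized counts in green libraries 1, 2 and 3, then 642, 646 and 638 in the turning libraries, and 52.5, 30.9 and 58.3 in the yellow libraries. The turning libraries were almost identical, and every yellow library lay far below all others. The stage means were 748 ± 159, 642 ± 4.01 and 47.3 ± 14.5 (SD, n = 3 libraries each), so that 7.37% of the turning level was left in yellow leaves. Turning and yellow leaves differed by a fitted log2 fold change of -3.79 ± 0.26 (SE; edgeR), given as a size only because the choice of members used this contrast.

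Gb_39136 kept a similar mean in the first 2 stages while its libraries varied. Its normalized counts were 919, 904 and 1413 in green, 799, 1251 and 1071 in turning and 104, 72.1 and 41.5 in yellow leaves. The highest turning library was number 2 and the highest yellow library was number 1, so that no library number stood out through the season. Yellow leaves held 6.96% of the turning mean (72.4 ± 31.1 against 1040.5 ± 228 normalized counts, SD, n = 3), with a log2 fold change of -3.87 ± 0.37 (SE). Gb_39136 was also the member that met the selection under every one of the 22 alternative settings tried, some of which only loosened the rule.

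Novel01117 and Gb_01682 varied little: within a stage their highest library was at most 1.64 and 1.77 times the lowest. By this measure Gb_39625 lay between them, at most 1.72 times. Novel01117 had 176, 244 and 175 normalized counts in green, 175, 180.4 and 162 in turning and 21.6, 35.3 and 23.03 in yellow leaves. Its yellow values rest on 16, 24 and 15 raw counts. Library 2 was the highest of each stage, and the stages of green and turning leaves overlapped while yellow leaves stood apart. Gb_01682 had 231, 203 and 224 normalized counts in green, 272, 193 and 183 in turning and 21.6, 35.3 and 19.96 in yellow leaves. Green and turning libraries again overlapped, with turning library 1 the highest of the 6. The yellow mean was 15.4% of the turning mean for Novel01117 and 11.8% for Gb_01682, with log2 fold changes of -2.72 ± 0.26 and -3.10 ± 0.28 (SE).

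Gb_39625 and Gb_13575 had their highest turning value in library 1, well above the other turning libraries. Gb_39625 had 1008, 838 and 1311 normalized counts in green, 1130.0, 658 and 746 in turning and 108, 144 and 155 in yellow leaves. Turning libraries 2 and 3 lay below all green libraries, while turning library 1 lay between green libraries 1 and 3. Its yellow mean, 136 ± 24.8 (SD, n = 3), was 16.1% of the turning mean, the largest remainder among the members. Gb_13575 had 1498, 1958 and 1864 normalized counts in green, 2383, 1399 and 1264 in turning and 106, 80.9 and 126 in yellow leaves. Turning library 1 exceeded every green library and turning libraries 2 and 3 lay below every green library, so that the turning mean of 1682 ± 611 came close to the green mean of 1773 ± 243 (SD, n = 3) only as an average. Between turning and yellow leaves the log2 fold change was -2.67 ± 0.27 for Gb_39625 and -4.04 ± 0.30 for Gb_13575 (SE).

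Gb_15987, Gb_00034 and Gb_02767 varied most before the leaves yellowed: over the green and turning libraries the highest value was 2.56, 3.26 and 2.19 times the lowest, against at most 1.99 times for the other members. For all 3, library 2 was the lowest of every stage. Gb_15987 had 314, 251 and 617 normalized counts in green, 397, 241 and 471 in turning and 40.4, 16.2 and 43.0 in yellow leaves. Library 3 was the highest and library 2 the lowest at each stage, and library 1 lay between them. Gb_00034 had 305, 230.1 and 657 normalized counts in green, 739.6, 227 and 249 in turning and 33.7, 16.2 and 39.9 in yellow leaves. The high green library was number 3 and the high turning library was number 1. Its means of 397 ± 228 and 405 ± 290 (SD, n = 3) in green and turning leaves therefore differed far less than the libraries within either stage. Yellow leaves held 8.98% of the turning mean of Gb_15987 and 7.39% of that of Gb_00034, with log2 fold changes of -3.50 ± 0.50 and -3.79 ± 0.65 (SE).

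Gb_02767 had the largest mean fall of the 9, and also the most uneven yellow libraries. Its normalized counts were 508, 347 and 693 in green, 657, 316 and 364 in turning and 10.8, 1.47 and 44.5 in yellow leaves. The yellow values stand for 8, 1 and 29 raw counts, and the highest was 30.3 times the lowest. Yellow library 3 alone carried the model over the minimum required in yellow leaves. Its single count in yellow library 2 allows 0.0372 to 8.20 normalized counts (95% exact Poisson interval). The turning-to-yellow ratio of 215 within the libraries numbered 2 has an exact 95% interval from 38.3 to 8497, counting error only. Over the stage means, 4.25% of the turning level was left in yellow leaves, and the log2 fold change was -4.60 ± 0.82 (SE).

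**Figure D1:**
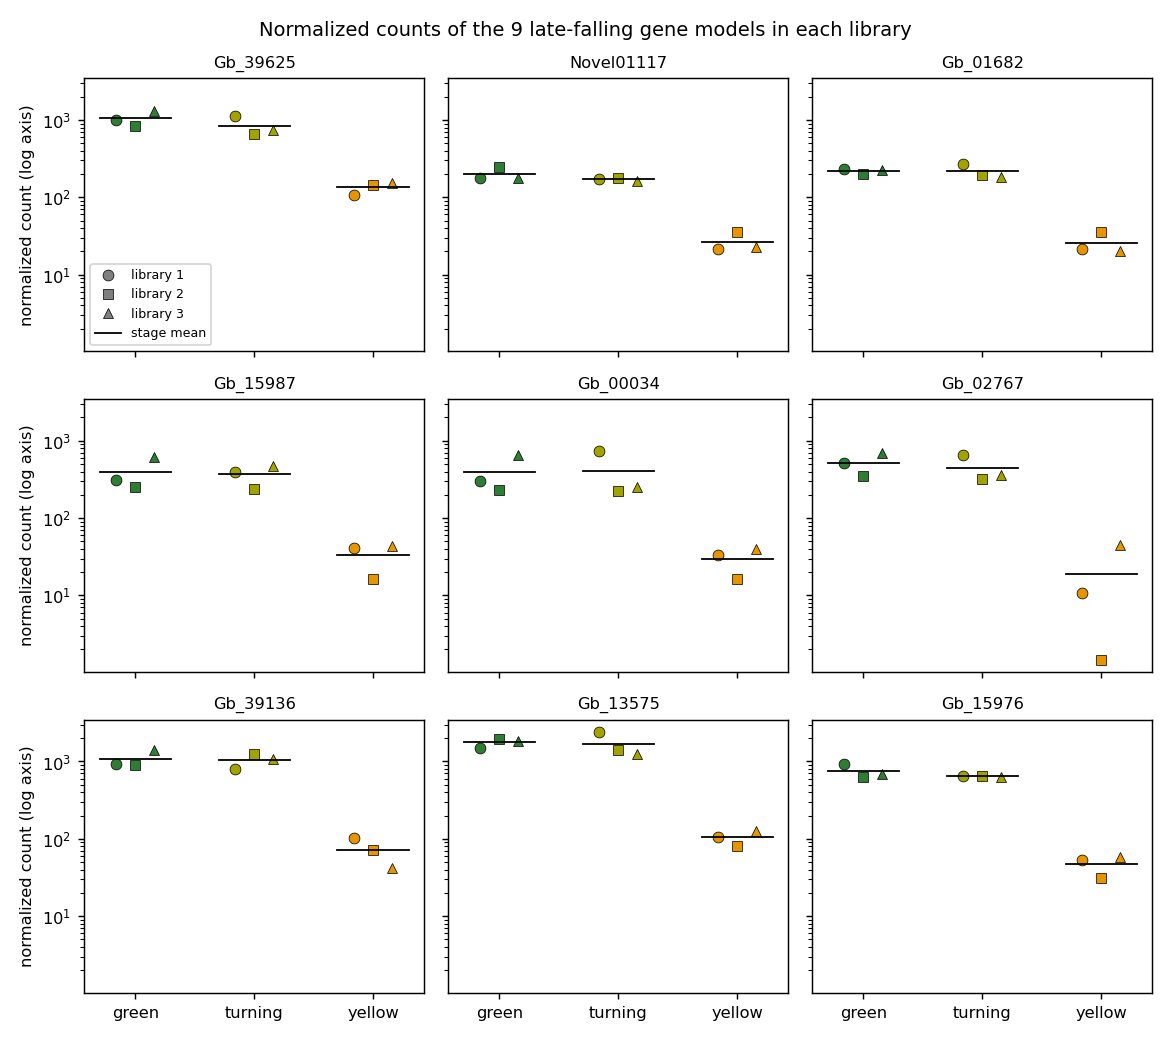
Normalized counts (log axis) of the 9 members in each of the 9 libraries, 1 panel per gene model, with stages on the horizontal axis, a symbol for each library number and a line at each stage mean. In every panel the 3 yellow libraries lie below all green and turning libraries, as the rule requires. The turning libraries of Gb_00034 spread from 227 to 739.6, and the yellow libraries of Gb_02767 from 1.47 to 44.5.

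In the last 13 days all members were lower in yellow than in turning leaves, by 6.22 to 23.5 times on the stage means with a median of 13.5 times. The yellow mean was 4.25% to 16.1% of the turning mean. In the fit across 23042 tested models, 9 of 9 members were called lower in yellow than in turning leaves, where 21.0% of all models were, and 9 of 9 were called lower in yellow than in green leaves, where 31.9% were (edgeR quasi-likelihood test, adjusted p below 0.05). The selection used both contrasts, so nothing is read from these counts. Between turning and yellow leaves the median fitted log2 fold change was -3.79 for the members and -0.05 for all tested models, and between green and yellow leaves it was -3.75 and -0.06.

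Within pairs of same-numbered libraries, the turning-to-yellow ratio of a member was between 4.56 and 60.9 for all pairs but 1, the number 2 pair of Gb_02767 with its single yellow count. The rule allows no member a ratio below 4 here. The lowest ratios were those of Gb_39625 in the libraries numbered 2 and 3, at 4.56 and 4.81. For Gb_39136 the ratio was 7.70, 17.4 and 25.8 in numbers 1, 2 and 3. For Gb_13575 it went the other way, at 22.4, 17.3 and 10.04, so that the members did not share 1 order of library numbers.

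From green to turning leaves, over 44 days, the ratio of the stage means was 0.802 to 1.02 with a median of 0.939, and the turning mean lay below the green mean for 8 of 9 members, Gb_00034 being the exception. In this comparison 0 of 9 members were called, where 24.1% of all tested models were called in either direction (edgeR, adjusted p below 0.05). None reached an unadjusted p below 0.05 with edgeR, DESeq2 or limma-voom, and the smallest unadjusted p was 0.251, 0.275 and 0.189 with these tools. The window on this ratio was part of the selection, so nothing is read from that count either. Models without a call may still differ between the stages. The 95% interval of the log2 fold change was narrowest for Gb_15976, from -0.73 to 0.31, and widest for Gb_02767, from -1.74 to 1.32, which allows changes of over 2-fold in either direction.

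Within library numbers the first interval was less level than the stage means. Only Gb_01682 and Gb_15987 had a turning-to-green ratio inside the window of 0.75 to 1.33 in all 3 numbers. Gb_13575 was inside in 0 of 3, with ratios of 1.59, 0.714 and 0.678 in numbers 1, 2 and 3. Gb_00034 was inside in 1 of 3, with 2.43, 0.987 and 0.379. The remaining 5 members were inside in 2 of 3 numbers. Among the 5923 models that met the same minimum level and the same window of the means, 55.8% were inside in all 3 numbers and 0.912% in none, against 2 and 1 of the 9 members. That difference was not tested. The label of a level course until the turning stage thus holds for the means of all 9 members and for each library number of 2 of them.

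**Figure D2:**
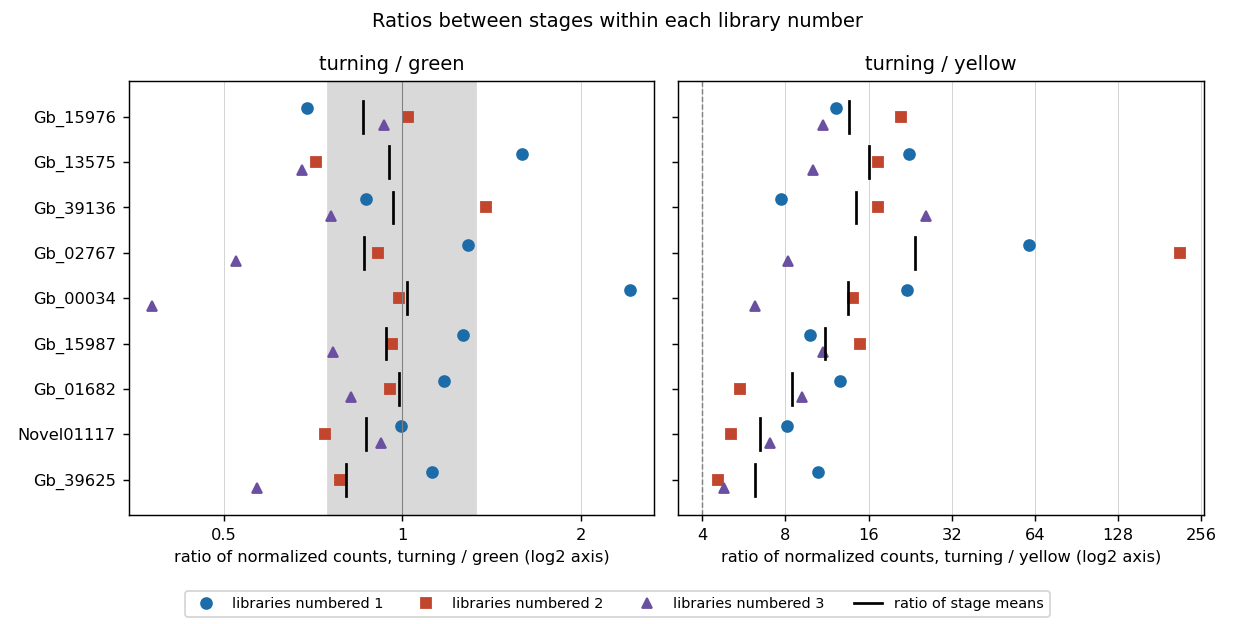
Ratios of normalized counts between same-numbered libraries (log2 axes), turning over green on the left and turning over yellow on the right, for each member; symbols mark library numbers, black bars the ratio of the stage means, the grey band the window of 0.75 to 1.33 and the dashed line a ratio of 4. The black bars stay inside the band and on the right every point lies above 4, both as the rule requires. Single numbers of Gb_00034 reach 0.379 and 2.43 on the left.

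Differences between library numbers within stages were not what the selection asked for, although it limits them by requiring high values in all green and turning libraries and low values in all yellow ones. In a model with stage and library number, 1 of 9 members was called for the number, where 6.80% of all tested models were (F test of edgeR, adjusted p below 0.05). The member was Gb_15987, with an adjusted p of 0.0472 (edgeR), its library 3 being the highest and library 2 the lowest in 3 of 3 stages. That call was close to the threshold: it was kept in 7 of 16 alternatives, and the adjusted p ran from 0.00201 with DESeq2 to 0.175 without turning library 2. It was lost without green library 2 (adjusted p = 0.151) or 3 (0.15), turning library 1 (0.0568), 2 (0.175) or 3 (0.0824), and yellow library 2 (0.134) or 3 (0.0517), all with edgeR. The other 8 members had edgeR adjusted p-values from 0.289 for Gb_00034 to 0.989 for Gb_39136.

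The highest and the lowest library of each stage were counted over the members, and the largest counts are given here. Green library 2 was the lowest green library for 7 of 9 members, where it was the lowest for 32.3% of all tested models. Green library 3 was the highest for 5 members (37.5% of all models), turning library 1 was the highest for 5 (32.6%) and yellow library 3 was the highest for 6 (38.6%). Yellow library 2 was the lowest for 5 members, against 31.5% of all models. The lowest turning library was number 2 for 4 members and number 3 for 4, against 31.3% and 35.5% of all models. Members share libraries, so these counts describe the 9 models and are not independent observations. They were picked as the largest, and their differences from the shares over all models were not tested.

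To see the same course in libraries that the selection had not used, the rule was applied to the 6 libraries of 2 library numbers and the ratios were read in the 3 libraries of the number left out. Without number 1 the rule took 23 models, and 10 of them were at least 4 times lower in yellow library 1 than in both green library 1 and turning library 1, where 2.46% of all models with the same minimum level were. Without number 2 it took 9 models, of which 8 were lower by that much in the libraries numbered 2, against 2.64%. Without number 3 it took 26 models, of which 12 were, against 2.42%. All 58 cases, from 46 different models, had a lower value in the left-out yellow than in the left-out turning library, with a median turning-to-yellow ratio of 4.97, 14.9 and 3.91 in numbers 1, 2 and 3. Among models with the same minimum level, 46.0%, 45.8% and 47.8% were lower in the left-out yellow than in the turning library. Of those also inside the window in the other libraries, 0.782%, 1.32% and 1.24% were at least 4 times lower in the left-out yellow than in the left-out green and turning libraries. Neither of these reference sets was asked to fall in the libraries used for the selection. Of the models taken, 5, 7 and 7 were among the 9 members, which by the rule had to fall by 4 times in every library. Of the other 39 cases, 11 fell by that much in the left-out libraries, 1 of 2 in number 2. This tally is low by construction, because a model taken from 6 libraries that also fell in the left-out ones could become a member.

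The turning-to-green ratio was read in the same left-out libraries. Of the models taken, 9 of 23, 7 of 9 and 10 of 26 had a turning-to-green ratio inside the window in the left-out numbers 1, 2 and 3. Of all models that met the minimum level and the window in the other libraries, 67.7%, 79.9% and 75.3% were inside it in the left-out number. The median left-out ratio was 0.690, 0.987 and 0.665, so that in numbers 1 and 3 the typical model taken had a lower value in the turning than in the green library. Gb_39136, Gb_15976 and Gb_15987 were taken by all 3 selections.

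**Figure D3:**
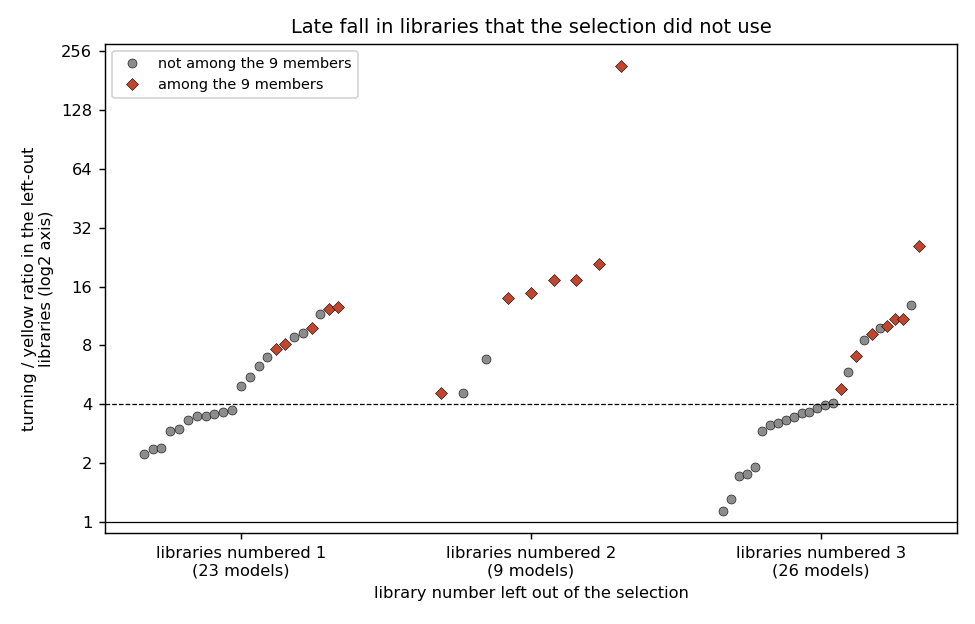
Ratio of turning to yellow normalized counts (log2 axis) in the libraries left out of the selection, for the 23, 9 and 26 models that the rule took from the other 6 libraries, sorted within each left-out number; diamonds are models among the 9 members, circles the others, and the dashed line marks a ratio of 4. All points lie above 1, and the medians are 4.97, 14.9 and 3.91.

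The pattern was rare among well-expressed models. Of 11106 models with at least 135 normalized counts in every green and turning library, 5923 had a turning-to-green ratio inside the window. Among these 5923, 1320 had all green and turning libraries above all yellow libraries, 143 by at least 2 times, 33 by at least 3 times and 11 by at least 4 times. The minimum in yellow leaves removed 2 of the 11 and left the 9 members. Without the window, 44 further models met all other criteria, of which 42 had a lower turning than green mean and 2 a higher one. Of 590 models with a fitted fall from turning to yellow at least as large as the smallest among the members, 500 were below the minimum level, 66 reached it but lay outside the window, and 24 met both. Most models that fell this steeply in the last interval were therefore below the minimum level. Of the 90 that reached it, 24 were inside the window, against 5923 of all 11106 models at that level. That difference was not tested.

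The opposite course was found more often on this scale. With green and turning on one side and yellow on the other exchanged in the rule, 36 models had a level first interval and a late rise, against 9 with a late fall. The rules do not draw on the same pool of models. For the rise the level minimum applied to the yellow libraries, and the window was read on green and turning values that could be low. The counts are therefore not shares of a common pool. This order depended on the scaling: with library totals and no composition factor, 20 models met the rising and 27 the falling rule, and only 4 of the 9 members were among the 27. Of the members lost, Novel01117 and Gb_01682 were then below the minimum in yellow leaves. Gb_39625, Gb_02767 and Gb_15976 were below the turning-to-green window. All of them still had the required gap to yellow leaves. With TMM factors the counts were 31 rising and 11 falling, and with upper-quartile factors 32 and 11, with all 9 members kept in both.

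**Figure D4:**
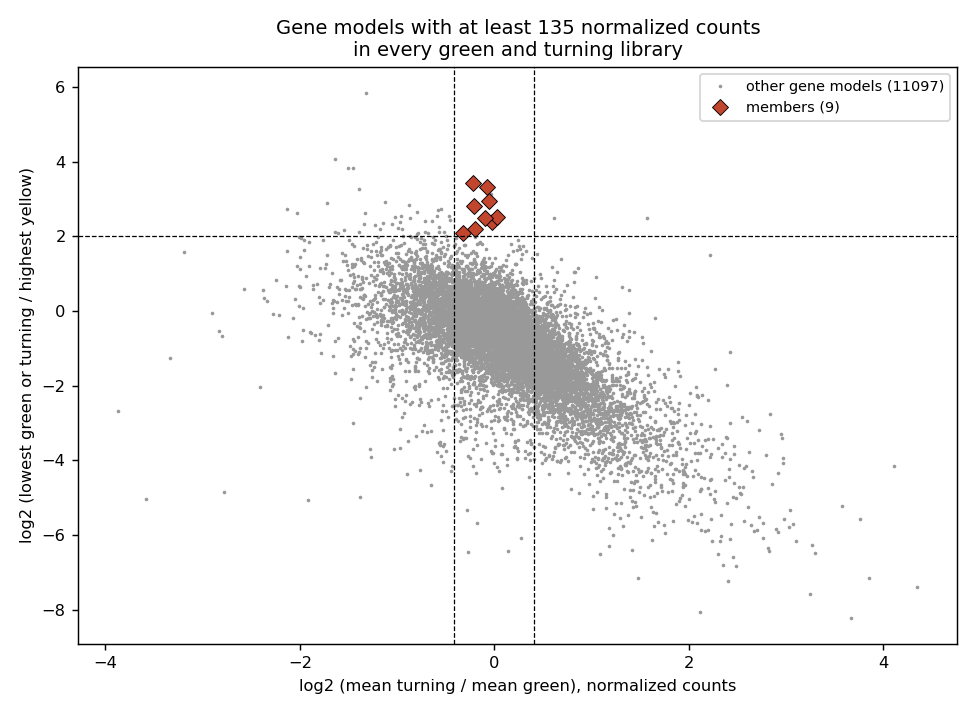
All 11106 models with at least 135 normalized counts in every green and turning library, by the log2 ratio of the turning to the green mean (horizontal) and the log2 ratio of the lowest green or turning to the highest yellow library (vertical). Dashed lines mark the limits of the rule, and the 9 members (diamonds) lie between the vertical lines and above the horizontal one, with 2 further models that missed the minimum in yellow leaves.

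The ratio of the lowest green or turning to the highest yellow library, which had to reach 4, was 4.24 for Gb_39625, 4.58 for Novel01117, 5.19 for Gb_01682, 5.60 for Gb_15987 and 5.69 for Gb_00034. Exact 95% intervals for the counts of the 2 libraries concerned reached below 4 for these 5 members, from 3.44 to 5.27 for Gb_39625 and from 2.996 to 7.31 for Novel01117. The ratio was 7.09 for Gb_02767, 7.70 for Gb_39136, 10.04 for Gb_13575 and 10.8 for Gb_15976, whose intervals lay above 4. Just outside were Gb_28364 with a ratio of 3.98 (2.68 to 6.12) and Gb_12012 with 3.91 (3.40 to 4.51). Gb_28364 had 282, 190.1 and 329.8 normalized counts in green, 311, 216 and 171 in turning and 28.3, 29.4 and 43.0 in yellow leaves, a course like that of the members. On the side of the window, Gb_15601 missed it with a turning-to-green ratio of 0.729, next to 0.802 for the nearest member, and Gb_05285 with 1.53. Gb_18999 met everything but the yellow minimum, with at most 24.3 normalized counts in a yellow library.

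Membership was stable for some members and not for others. Over 22 alternative settings Gb_39136 was kept in 22, Gb_15987, Gb_13575 and Gb_15976 in 21, Novel01117 and Gb_01682 in 18, Gb_39625 and Gb_00034 in 17 and Gb_02767 in 16. Settings that only loosened the rule could not remove a member. These were the window of 0.5 to 2, 3 times the highest yellow library, no minimum in yellow leaves and no exclusion of abundant models. Leaving out turning library 1 removed Gb_39625, Gb_00034 and Gb_02767. Leaving out yellow library 2 removed Novel01117 and Gb_01682, leaving out green library 2 removed Gb_39625 and Gb_02767, and leaving out green library 3 and yellow library 3 removed Gb_00034 and Gb_02767, respectively. The losses without a yellow library came from the minimum of 27 normalized counts, which the remaining yellow libraries did not reach. Those without a green or turning library came from the turning-to-green window. In none of these losses was the gap of at least 4 times missed. The number of models that met the rule rose from 9 to 21 without turning library 3, to 20 without yellow library 1 and to 16 without yellow library 3, and with these libraries left out 9, 9 and 8 of the members were kept.

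**Figure D5:**
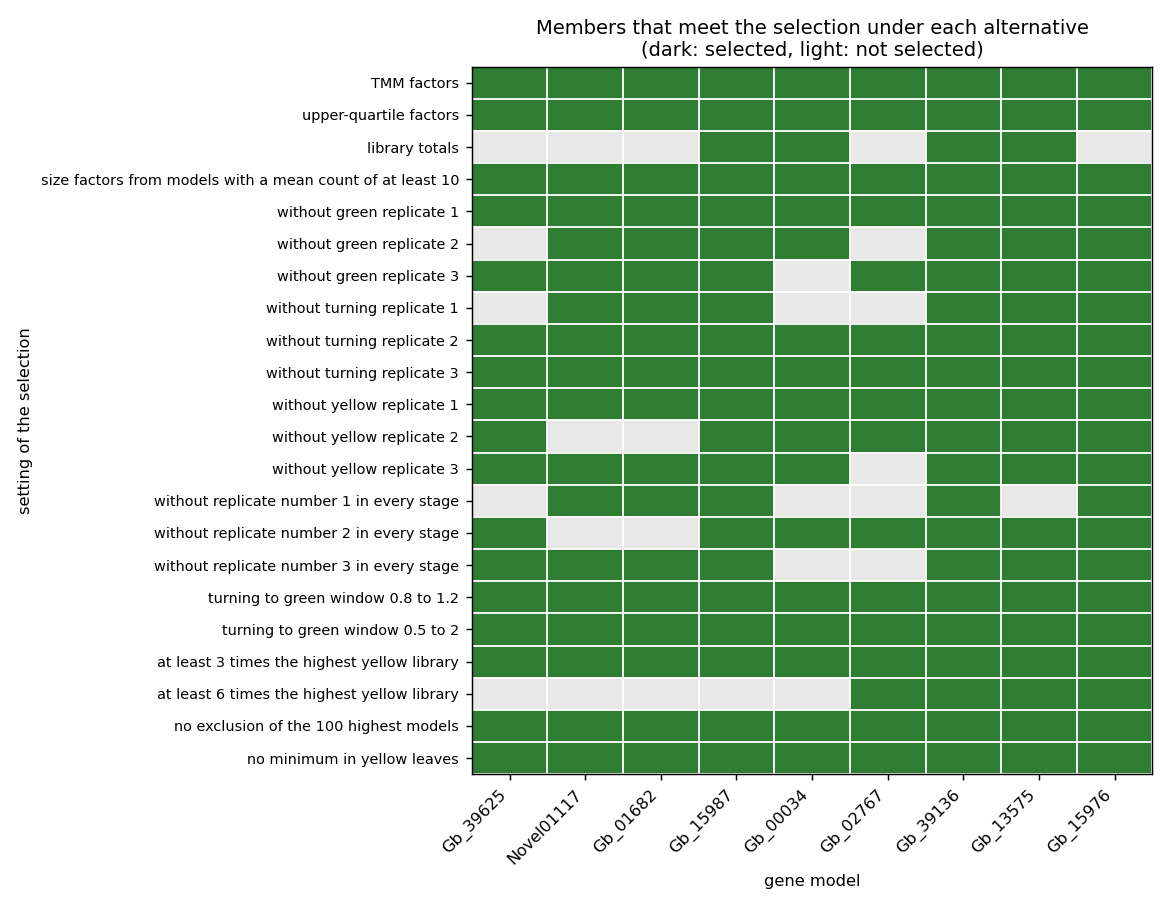
The 9 members (columns) under the 22 alternative settings of the selection (rows); dark cells mark a member that was selected under that setting and light cells one that was not. The column of Gb_39136 is dark throughout, and Gb_02767 has the most light cells, with 16 of 22 dark. Rows for settings that only loosened the rule are dark for every member by construction.

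By the prefix of their identifiers, 8 members carried Gb_ and 1, Novel01117, carried the other prefix of the table. Of the 5923 models at the same level and inside the window, 205 (3.46%) carried the prefix of Novel01117. What the prefixes stand for is not given in the sources used here.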

How the data were processed

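The deposited values are raw counts of reads for each gene model, with a column for every library and nothing pooled by the authors. HTSeq 0.6.1, HISAT2 2.0.4 and CASAVA 1.8 are named in the submitters' processing notes, with no role given. Genome build, annotation and strand setting: not given in the sources used here, so overlapping or near-identical models could not be recognised.

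Counts were divided by DESeq2 1.42.0 size factors, and the members were taken by the rule in the report. The members, lists and tests were chosen with earlier results of these data known. Fits used edgeR 4.0.16 in R 4.3.3 on all 9 libraries (filterByExpr with minimum count 10 and minimum total 15, TMM, robust quasi-likelihood tests, stage as the only term), with Benjamini-Hochberg adjustment over 23042 models and a two-sided threshold of 0.05. SE were derived from fold change and F, and 95% intervals from the SE. The library number was tested in a model with stage and number. Where the rule was applied to 6 libraries, the size factors and the exclusion of the most abundant models were those of all 9. The edgeR fits and the size factors were tested on simulated data. The selection of members, the exact intervals and the DESeq2 and limma-voom fits were not. Alternatives were other scalings, filters, DESeq2, limma-voom (limma 3.58.1), a replicate block, each library left out, and other limits of the rule.

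Members were named by rank in level, in the gap to yellow leaves, in the turning-to-green ratio and in the number test; since only 9 exist, all are given in full. Pathway and marker lists were not tested, as the identifiers carry no names. Same-numbered libraries of different stages deviated together from their stage means (r from 0.24 to 0.66 over 9 pairs, across genes). For different numbers r was -0.52 to 0.03, but deviations cancel within a stage, so a positive r for same numbers lowers the others. Library numbers were taken to pair the samples, a reading that rests on these values and not on the labels. The SE and intervals given for members are from the fit without this pairing. With the replicate block the SE from turning to yellow leaves was smaller for some members and larger for others. It went from 0.50 to 0.24 for Gb_15987 and from 0.37 to 0.40 for Gb_39136. No 2 libraries of a stage agreed within sampling noise (chi-square per degree of freedom 47.8 to 154). No molecular identifiers mark the reads, which are thus not independent molecules, and count intervals cover counting error only.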

Additional observations from a re-analysis of the deposited data

How the results depend on the processing

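Which models belong to the group depended on the limits and the libraries. The rule took 27 models with library totals, 34 with a turning-to-green window of 0.5 to 2, 31 at 3 times and 4 at 6 times the highest yellow library, and 9 to 21 with 1 library left out. It took 23, 9 and 26 without the libraries numbered 1, 2 and 3. With library totals the late rise was met by 20 models. On that scale 109 of 163 cases taken from 6 libraries fell at least 4-fold in the left-out ones. The tally was 30 of 58 with size factors and 42 of 82 with TMM factors. The 58 include members, whose fall the full rule required in every library. Of the 39 other cases 11 fell by that much, a tally that is low by construction. Shares over all models at the minimum level, 2.42% to 2.64%, were read with size factors only. All 17 alternatives gave 9 of 9 members lower in yellow than in turning and than in green leaves, and 0 of 9 called between green and turning leaves. Of all tested models, 15.4% to 39.2%, 23.8% to 49.9% and 8.36% to 36.8% were called in these 3 comparisons over the alternatives. The selection used these contrasts, so nothing is read from the counts of members. The members' median log2 fold change from turning to yellow ran from -3.88 to -3.49 with 1 library left out, and was -4.28 with library totals, where the median of all models was lower as well; relative to that median it was -3.72, and -3.74 with TMM. With the replicate block it was -3.77, the counts of called members were the same, and no call of a member changed. For the library number 0 members were called with library totals or upper-quartile factors, where 6.7% and 6.73% of all models were. With 1 library left out 0 to 1 members were called, where 1.24% to 7% of all models were. The cause was not tested. Counting error weighs more on the yellow values than on the green and turning ones. Yellow libraries also differed from each other beyond counting error, with a chi-square per degree of freedom of 53.3 to 154.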

Other observations

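Gb_15986, whose identifier is next to that of the member Gb_15987, was looked at after its values were seen, because the selection took it without the libraries numbered 1 and without those numbered 3. It had 750.3, 480.2 and 253 normalized counts in green libraries 1, 2 and 3, then 971, 596 and 287 in turning and 83.5, 5.88 and 29.2 in yellow leaves. In green and turning leaves library 1 was the highest and library 3 the lowest, whereas for Gb_15987 library 3 was the highest. Its turning-to-green ratio of the means was 1.25, inside the window, and it missed the group because its lowest green library was 3.03 times its highest yellow library (95% exact interval of the 2 counts 2.30 to 4.04). Between turning and yellow leaves its fitted log2 fold change was -3.98 ± 0.86 (SE; edgeR), given as a size only because the model was noticed through this contrast, and the library number was not called for it (edgeR adjusted p = 0.146). Whether the 2 models lie next to each other in the genome or share reads is not given in the sources used here.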
